A study of Homo sapiens with 24 samples.

Results

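Immediate early genes are switched on within minutes of a signal, before any new protein is made. This account covers 9 of them in MyLa and HuT 78 cells with and without knockdown of the kinase PRKCQ: EGR1, EGR2, EGR3, NR4A1, NR4A2, NR4A3, IER2, IER3 and IER5. They were chosen by symbol and make up 9 of the 58780 genes listed in the deposited tables, and each had exactly 1 row with an adjusted p-value both in DMSO and in TPA. PRKCQ encodes protein kinase C theta, the protein kinase C that acts downstream of the T cell receptor. MyLa is an established line from mycosis fungoides and HuT 78 one from Sézary syndrome, both cutaneous T cell lymphomas. RNA sequencing was done on 24 libraries in 8 groups of 3, and the labels call the replicates independent.

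The groups were MyLa NTC and MyLa shPRKCQ, HuT 78 NTC and HuT 78 shPRKCQ, each with DMSO and each with TPA. NTC is a non-targeting control hairpin and shPRKCQ a short hairpin RNA against PRKCQ. For the knockdown, cells were grown in doxycycline at 1 µg/ml for 72 h or longer before treatment, per the labels' protocols, and whether NTC cells also received doxycycline is not given there; if they did not, drug and hairpin cannot be told apart. Treatment lasted 24 h, with TPA at 10 ng/ml or with its vehicle DMSO. TPA, a phorbol ester, switches on protein kinase C enzymes directly. Each deposited table sets 6 shPRKCQ against 6 NTC libraries, with both lines together, for 1 treatment. Values for a single line, a single library or TPA against DMSO are therefore not analysed here. The labels do not say whether either line was a single clone.

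The EGR proteins are zinc finger transcription factors, and the ERK pathway with serum response factor is a known route of induction, best known for EGR1. In T cells EGR1 is an early activation gene, whereas EGR2 and EGR3 are also known for restraining activation. NR4A1 (Nur77), NR4A2 (Nurr1) and NR4A3 (NOR1) are orphan nuclear receptors that report T cell receptor signalling and are linked to T cell dysfunction. The IER genes are a mixed group: IER2 and IER5 are related nuclear proteins, IER5 acting on heat shock factor HSF1, and IER3 (IEX-1) is a regulator of survival induced by NF-kappaB. Their induction is brief, so libraries taken 24 h after TPA report a late state and not the first burst.

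The genes lie on 9 different chromosomes (GENCODE release 29, GRCh38). EGR1 is at chr5:138465490-138469315 (plus strand) and EGR2 at chr10:62811996-62919900 (minus). NR4A1 is at chr12:52022832-52059507 (plus), NR4A2 at chr2:156324432-156342348 (minus) and NR4A3 at chr9:99821855-99866891 (plus). IER2 is at chr19:13150415-13154908 (plus), IER3 at chr6:30743199-30744554 (minus) and IER5 at chr1:181088712-181092899 (plus). The long span of EGR2 comes from the distant first exons of 1 noncoding transcript.

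Promoter sequence was read from RefSeq (GRCh38.p14) for 6 of the 9 genes, in 9 windows that each run from 250 bases before to 50 bases after a transcript start. The stretches shown here are those of the genes whose values were highest under TPA, NR4A3 and EGR2, of EGR1 as the type gene of the family, and of IER5 for contrast. They cover up to 150 bases upstream of the start, 5′ to 3′ on the gene's strand, without bases in an annotated exon. Capitals mark CArG boxes (the serum response factor site), the letters TGACG (the core of the CRE, the site of CREB and ATF factors) and CCGGAA (the core of ETS factor sites), each on either strand.
EGR1: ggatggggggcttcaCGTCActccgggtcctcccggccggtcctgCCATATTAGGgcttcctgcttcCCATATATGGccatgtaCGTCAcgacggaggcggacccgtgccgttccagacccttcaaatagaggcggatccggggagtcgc
EGR2: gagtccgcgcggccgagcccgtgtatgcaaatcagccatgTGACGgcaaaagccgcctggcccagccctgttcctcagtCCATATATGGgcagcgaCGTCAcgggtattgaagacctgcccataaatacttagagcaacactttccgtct
NR4A3: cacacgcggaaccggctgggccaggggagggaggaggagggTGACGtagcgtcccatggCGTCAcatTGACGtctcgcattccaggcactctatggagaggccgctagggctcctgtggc
IER5: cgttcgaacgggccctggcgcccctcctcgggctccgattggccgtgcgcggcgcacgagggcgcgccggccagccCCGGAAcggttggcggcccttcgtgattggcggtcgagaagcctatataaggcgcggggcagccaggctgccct
The stretches are chr5:138465329-138465478 for EGR1, chr10:62816367-62816516 on the minus strand for EGR2, chr9:99821735-99821854 for NR4A3 and chr1:181088550-181088699 for IER5. EGR1 had a pair of CArG boxes, at -105 and -83 from its start, between TGACG matches at -135 and -66. EGR2 had a single CArG box at -71, with TGACG matches at -110 and -54. NR4A3 had no CArG box in its window and 4 TGACG matches, at -109, -91, -83 and -25, the last of them inside the annotated exon and so not shown. IER5 had only a CCGGAA match, at -74. Of all 35116 RefSeq promoter windows 1.29% held a CArG box and 0.03% held 2 or more. TGACG was found in 24.55% of them, and 0.313% held 4 or more. Of the 9 windows 4 held it, those of NR4A3, EGR1 and IER2 (at -140) and 1 of EGR2. The letters CCGGAA were in 17.25% of windows and, among the 6 genes, in IER5, NR4A1 and IER2. The AP-1 site TGANTCA was in 7.71% of all windows and in 0 of the 9. The motifs do not overlap one another in these windows. These are matches of letters and were not tested as binding sites.

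**Figure D1:**
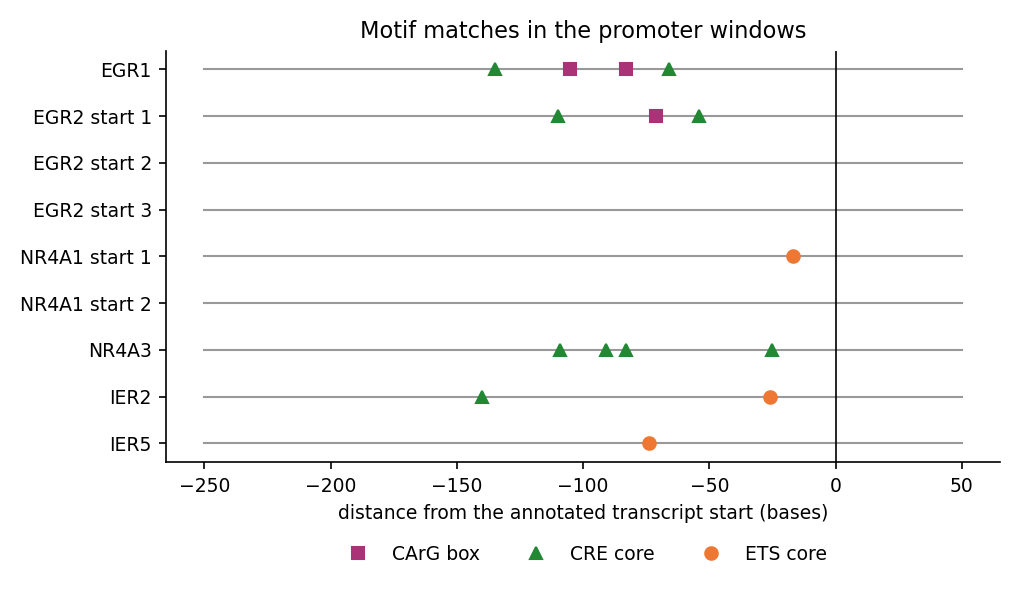
Positions of motif matches on either strand in the 9 promoter windows, as distance in bases from the annotated transcript start (0); each line is 1 window, and genes with several starts have 1 line per start, numbered by coordinate. CArG boxes appear only in EGR1 and in 1 window of EGR2, and NR4A3 carries 4 matches to the CRE core.

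The first question was whether lowering PRKCQ changed these genes in vehicle-treated cells. None of the 9 passed in DMSO. In the authors' deposited table PRKCQ itself had log2 fold changes of -2.11 with DMSO and -2.08 with TPA (adjusted p = 5.61e-14 and 1.67e-15); negative values are read as lower in shPRKCQ cells on that ground, because the tables do not state a direction. At the authors' adjusted p under 0.05 0 of 9 genes were called in DMSO, where 14 of all 13007 tested genes were, or 0.108%. At an unadjusted p under 0.05 there were also 0 of 9, against 3.04% of all tested genes. The values were 7 positive and 2 negative, with a median of 0.081 beside 0.0075 over all tested genes, of which 52.3% were positive.

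The EGR genes had the least precise estimates of the 9 in DMSO. In the authors' deposited table EGR1 was at a log2 fold change of 0.25, which is 1.19 times the NTC level (p = 0.624). From that p-value an implied standard error (SE) of 0.52 follows, and a 95% interval from -0.76 to 1.26. EGR2 was at 0.12 per the authors' deposited table (implied SE 0.67), with an interval from -1.21 to 1.44. EGR3 had the lowest value of the 9, -0.43 per the authors' deposited table or 74.3% of the NTC level, with an implied SE of 0.76 and an interval from -1.92 to 1.07. The 3 intervals overlap each other and include 0. Only the interval of EGR1 lies above -1, the value of a fall to 1/2 of the NTC level, and none lies wholly below 1, the value of a doubling. By implied SE, EGR1, EGR2 and EGR3 stood at percentiles 97.8, 99.1 and 99.4 of all tested genes, so their estimates were among the least precise. Both lines are pooled and the covariates are not known, so an implied SE may also hold differences between the lines.

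The NR4A receptors lay in a narrower band. NR4A1 was the highest of the 9 in DMSO, at 0.35 per the authors' deposited table (p = 0.365, implied SE 0.38), with an interval from -0.40 to 1.10. NR4A2 was at -0.16 and NR4A3 at 0.081 per the authors' deposited table, with implied SEs of 0.32 and 0.36. Their intervals ran from -0.78 to 0.46 and from -0.61 to 0.78, so that a 2-fold change in either direction lies outside both. The paralogs thus had values of both signs, each with an interval across 0.

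The IER genes had the most precise estimates, and IER2 and IER3 had the values nearest 0 of the 9. IER2 was at 0.0035 per the authors' deposited table (p = 0.982), with an implied SE of 0.16 and an interval from -0.30 to 0.31, that is from 0.81 to 1.24 times the NTC level. IER3 was at 0.027 per the authors' deposited table (implied SE 0.26, interval from -0.47 to 0.53). IER5 was at 0.15 per the authors' deposited table (p = 0.4, implied SE 0.17, interval from -0.19 to 0.49). All 3 intervals exclude a 2-fold change in either direction. Over the 9 genes, 5 intervals did so in DMSO.

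**Figure D2:**
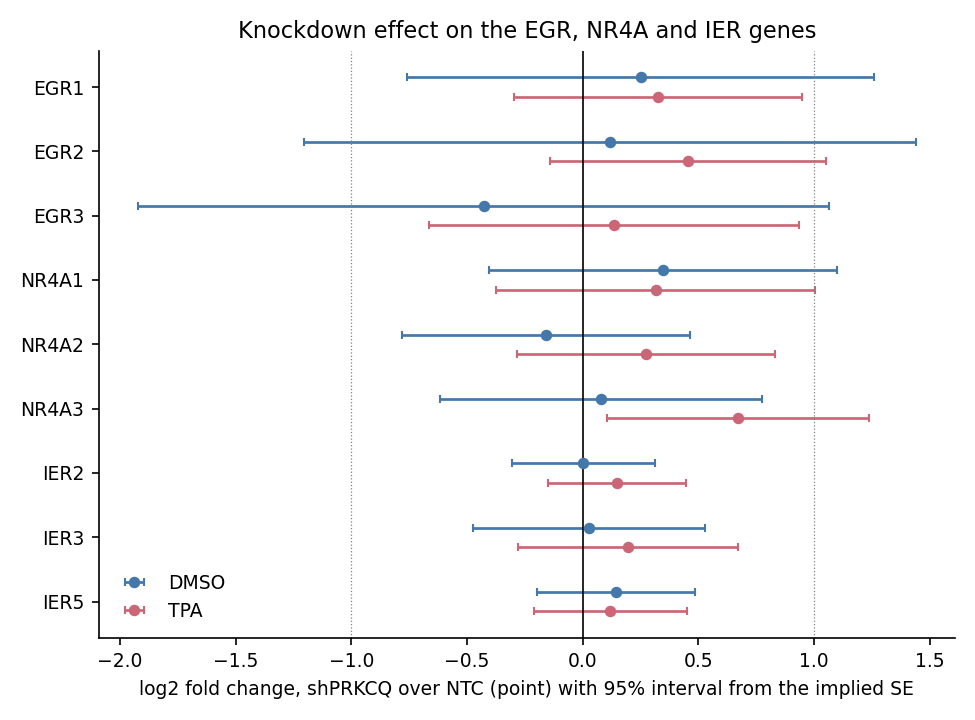
Log2 fold change of shPRKCQ over NTC for the 9 genes in DMSO and TPA (points, the authors' values over 6 against 6 libraries) with 95% intervals from the implied SE (bars); dotted lines mark a 2-fold change. The DMSO intervals of the EGR genes are the widest, and the TPA interval of NR4A3, from 0.10 to 1.24, is the only one that does not include 0.

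The same comparison under TPA asked whether lowering PRKCQ changed these genes in cells treated with TPA for 24 h. Protein kinase C activity at that time was not measured here. All 9 values were positive in TPA, from 0.119 to 0.672 on the log2 scale, but none passed. At the authors' adjusted p under 0.05 0 of 9 were called, where 22 of all 19417 tested genes were, or 0.113%. At an unadjusted p under 0.05 NR4A3 alone was counted, 1 of 9 beside 3.99% of all tested genes. The median of the 9 was 0.27 beside 0.011 over all tested genes, of which 53% were positive. The 9 genes were measured in the same libraries and are not 9 independent observations, so the shared sign is a description.

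NR4A3 was the highest of the 9 under TPA. In the authors' deposited table it was at a log2 fold change of 0.67, or 1.59 times the NTC level (p = 0.0204, adjusted p = 1, DESeq2 listed in the submitters' processing notes). Its implied SE was 0.29 and its interval ran from 0.10 to 1.24. It ranked 384th of 19417 by p-value and 305th by size among positive values. NR4A1 was at 0.32 and NR4A2 at 0.27 per the authors' deposited table (p = 0.371 and 0.333), with intervals from -0.38 to 1.01 and from -0.28 to 0.83. The intervals of the 3 receptors overlap, and differences between the receptors were not tested.

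Among the EGR genes EGR2 came first under TPA, at 0.46 per the authors' deposited table or 1.37 times the NTC level (p = 0.136), with an interval from -0.14 to 1.05. EGR1 was at 0.32 per the authors' deposited table (p = 0.308, interval from -0.30 to 0.95). EGR3, the gene with the negative value in DMSO, was at 0.14 per the authors' deposited table (p = 0.739, interval from -0.66 to 0.93). IER5 had the value closest to 0 of the 9 and EGR3 the next, and the IER genes were at 0.15 (IER2), 0.20 (IER3) and 0.12 (IER5) per the authors' deposited table. Their intervals ended at 0.45, 0.67 and 0.45. Under TPA all 9 intervals lay above -1, so that a fall to 1/2 of the NTC level lies outside each of them, and 6 of the 9 lay within 2-fold in both directions.

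**Figure D3:**
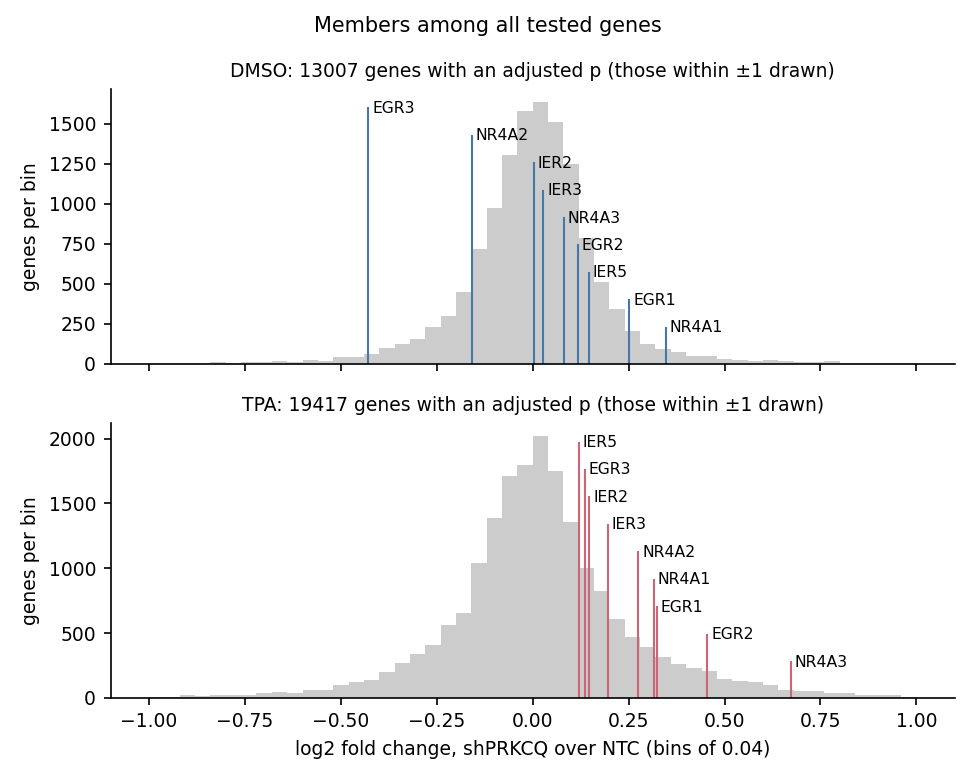
Histogram of log2 fold changes (shPRKCQ over NTC, bins of 0.04) of all tested genes in DMSO (13007 genes) and TPA (19417 genes), with vertical lines at the 9 genes; line heights only separate the names. In DMSO the 9 lie on both sides of 0, from -0.43 to 0.35; in TPA they run from 0.119 to 0.672.

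What a call would have taken differed between the families. The largest p-value that passed was 5.2e-05 in DMSO and 5.01e-05 in TPA. With its own implied SE, EGR3 would have needed an 8.49-fold change to pass in DMSO, EGR2 a 6.64-fold and EGR1 a 4.24-fold change. NR4A genes would have needed between 2.43-fold and 2.94-fold, and IER2 a 1.55-fold change. Under TPA these sizes ran from 1.53-fold for IER2 to 3.14-fold for EGR3. A change of a given size would thus have passed for an IER gene more readily than for an EGR gene.

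The implied SEs of EGR1 and EGR2 were smaller in TPA than those of genes equally imprecise in DMSO. EGR1 had 0.32 in TPA, where 205 other genes within 10% of its DMSO value had a median of 0.37, and 7.3% of them were lower. EGR2 had 0.31 in TPA beside a median of 0.42 over 78 such genes, of which 10.3% were lower. EGR3, at 0.41 beside 0.42, and NR4A2, at 0.28 beside 0.28, were close to the median of their neighbours. NR4A1 went the other way, at 0.35 beside 0.32, with 96.9% of 636 genes lower. Implied SEs in TPA lay below those in DMSO for imprecise genes in general, and whether the authors shrank the fold changes of either table is not given in the sources used here. Of the 34085 fold changes in TPA 2910 share exactly the same value, and in DMSO no value is shared by more than 2 genes. The DMSO table lists far fewer genes, so these ties do not tell whether both tables are on the same scale. That remains unknown.

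**Figure D4:**
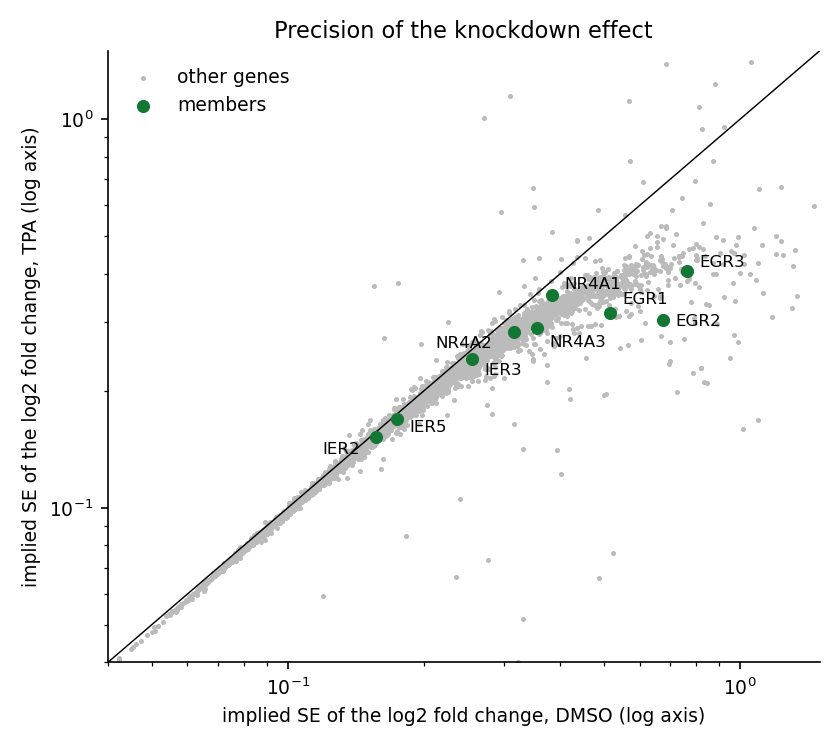
Implied SE of the log2 fold change in DMSO (x) and TPA (y), both on log axes, for the 9 genes (green) and all other genes in both tables (grey); the line marks equal values. EGR1 and EGR2 lie under the main band, and the IER genes, between 0.15 and 0.26, lie close to the line.

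The knockdown effect itself was then compared between the treatments. Of the 9 genes 7 had a higher value in TPA than in DMSO, where 47.5% of all 13007 genes did. The largest difference was that of NR4A3, 0.59 ± 0.46 (SE), with an interval from -0.31 to 1.49 (unadjusted p = 0.197). EGR3 differed by 0.56 ± 0.86 (SE) and NR4A2 by 0.43 ± 0.43 (SE). NR4A1 and IER5 gave differences of -0.03 and -0.03, with intervals from -1.05 to 0.99 and from -0.50 to 0.45. At an adjusted p of the difference under 0.05 0 of 9 passed, as did 0 of all 13007 genes (0%), and at an unadjusted p under 0.05 0 of 9 did, against 0.438% of all genes. The share of 0.438% lies below the fraction of 0.05 that this threshold allows without any difference, so the test was conservative. Its SEs and intervals may be too wide, and a count of 0 does not show that the effects were equal. Values of both signs in DMSO and of 1 sign in TPA are thus not shown to differ between the treatments.

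For 4 of the genes the fold change of an overlapping gene on the opposite strand was looked up, and these were chosen after their values were seen. The kit marks strand, per the labels' protocols, and whether the counting used strand is not given in the sources used here. EGR3 lies on the minus strand at chr8:22687659-22693302. AC055854.1, opposite EGR3, was at 0.68 in TPA per the authors' deposited table (p = 0.00304, adjusted p = 0.45, DESeq2 listed in the submitters' processing notes), while EGR3 itself was at 0.14. IER3-AS1, opposite IER3, was at -0.062 in TPA per the authors' deposited table (p = 0.871). The antisense genes of NR4A1 and IER2, AC025259.3 and AC011446.2, were at 0.035 and 0.16 in TPA per the authors' deposited table and had no adjusted p-value. None of these 4 is listed in the DMSO table.

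Gene structure, which the choice by symbol did not use, varied among the 9. Short, intron-poor genes and AU-rich elements in the 3′ untranslated region, which mark an mRNA for rapid decay, are known traits of immediate early genes. With the longest coding transcript of each gene, the 3 EGR genes and IER3 had 2 exons and IER2 and IER5 had 1, against a median of 9 over 14143 coding genes tested in TPA. NR4A1 and NR4A2 had 8 exons and NR4A3 9. By annotated span 6 of the 9 were shorter than the median gene of 32130 bp, and EGR2, NR4A1 and NR4A3 were longer. The pentamer ATTTA was present in the 3′ untranslated region of 8 of the 9, where 64.6% of all these genes had it. NR4A3 and IER5 had 10 copies each, IER3 6, NR4A2 4, EGR3 and NR4A1 3, EGR2 2 and EGR1 1. IER2 had none. Per kilobase, IER3 came first with 8.14 and NR4A1 next with 5.39, beside a median of 1.46 over all genes. EGR3 with 1.07, EGR1 with 0.81 and IER2 with 0 lay below that median. These counts describe the annotation and were not tested against the fold changes.

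Related genes were grouped into 8 lists by their place around the 9, and 0 of their members were called in either table, where 0.108% of all tested genes were in DMSO and 0.113% in TPA. Close partners come first: EGR4, the remaining EGR gene, was at 0.46 in DMSO and 0.34 in TPA per the authors' deposited tables. NAB1 and NAB2, corepressors that bind EGR proteins, were at -0.028 and -0.081 in DMSO and -0.19 and 0.052 in TPA per the authors' deposited tables. RXRB, a retinoid X receptor, the family that pairs with NR4A1 and NR4A2, was at 0.0089 and -0.12 per the authors' deposited tables. With RXRA, 2 of 5 partners were positive in DMSO and 3 of 5 in TPA.

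Upstream factors had values of both signs. Of 19 genes for SRF, its cofactors, CREB and MEF2 factors, 14 were positive in DMSO and 11 in TPA, with medians of 0.080 and 0.012. HDAC7, a histone deacetylase that holds MEF2 inactive at the NR4A1 gene in thymocytes, was at 0.21 and 0.12 in DMSO and TPA per the authors' deposited tables (p = 0.0139 and 0.16). CREB1, the cyclic AMP response factor, was at 0.14 in DMSO, and MEF2D, a MEF2 factor, at 0.35 in TPA per the authors' deposited tables (p = 0.142 and 0.0678). ERK cascade genes had 7 of 15 positive in DMSO and 11 of 16 in TPA, with medians of -0.014 and 0.045. Its scaffold KSR1 was at 0.37 in DMSO and 0.14 in TPA per the authors' deposited tables (p = 0.0456 and 0.438). RPS6KA4, a nuclear kinase for CREB and histone H3, was at 0.17 and 0.14 per the authors' deposited tables. RPS6KA2, a ribosomal S6 kinase, was tested only in TPA, at 0.59 per the authors' deposited table (p = 0.0652).

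Other immediate early genes had 13 of 21 positive in DMSO and 17 of 24 in TPA, with medians of 0.061 and 0.086. IER5L, the paralog of IER5, had the smallest p-value of that list in TPA, at 0.77 per the authors' deposited table (p = 0.00933, adjusted p = 0.795, DESeq2 listed in the submitters' processing notes). In DMSO it was at -0.34 per the authors' deposited table (p = 0.365). Its difference between the treatments was 1.11 ± 0.48 (SE), with an unadjusted p of 0.0203 and an adjusted p of 1 over all genes by the Benjamini-Hochberg method. IER5L was named for its TPA p-value, and the difference uses the same TPA value, so that unadjusted p is biased by the choice. IER5 itself had nearly equal values in both treatments. JUN, an AP-1 subunit, was at 0.66 and 0.62 with DMSO and TPA per the authors' deposited tables (p = 0.0105 in each). MCL1, a survival factor of the BCL2 family, was at 0.20 and -0.024 with DMSO and TPA per the authors' deposited tables.

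The decay factors that read AU-rich elements had a median of 0.015 in DMSO and one of 0.074 in TPA, with 5 and 4 of 6 positive. ZFP36 (tristetraprolin), which destabilises such mRNAs and is itself an early gene, was at 0.047 and 0.20 per the authors' deposited tables. ELAVL1 (HuR), which stabilises them, was at 0.031 and -0.10 per the authors' deposited tables. Neither had an unadjusted p under 0.05.

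Downstream genes were looked at last. Of genes linked to EGR factors in T cells, 3 of 8 were positive in DMSO and 5 of 11 in TPA, with medians of -0.070 and -0.013. ITCH, a ubiquitin ligase of T cell tolerance, was at -0.071 and -0.13 in DMSO and TPA per the authors' deposited tables. Under TPA the cytokine signalling inhibitors SOCS1 and SOCS3 were at 0.40 and -0.65 per the authors' deposited table (p = 0.0252 and 0.094). Of genes linked to NR4A factors, 2 of 4 were positive in DMSO and 6 of 10 in TPA, with medians of 0.060 and 0.11. TIGIT, an inhibitory receptor, was at 0.49 in DMSO and 0.17 in TPA per the authors' deposited tables (p = 0.0692 and 0.511). ENTPD1, the ectonucleotidase CD39, was at -0.16 and -0.043 per the authors' deposited tables. IKZF2 (Helios) and HAVCR2 (TIM-3) were at 0.61 and 0.59 in TPA per the authors' deposited table (p = 0.0782 and 0.0797).

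The list around IER5 and heat shock had its members mostly positive in DMSO, with 0 of them at an unadjusted p under 0.05. Of HSF1, its heat shock target genes and PPP2R2A, 10 of 11 were positive in DMSO with a median of 0.28, and 5 of 11 in TPA with a median of -0.015. BAG3, a co-chaperone, was at 0.36 and HSPB1, a small heat shock protein, at 0.28 in DMSO per the authors' deposited table (p = 0.123 and 0.156). In TPA they were at 0.15 and 0.13 per the authors' deposited table. HSF1 itself was at -0.035 and -0.042 per the authors' deposited tables, and IER5, which acts on it, was at 0.15 in DMSO.

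**Figure D5:**
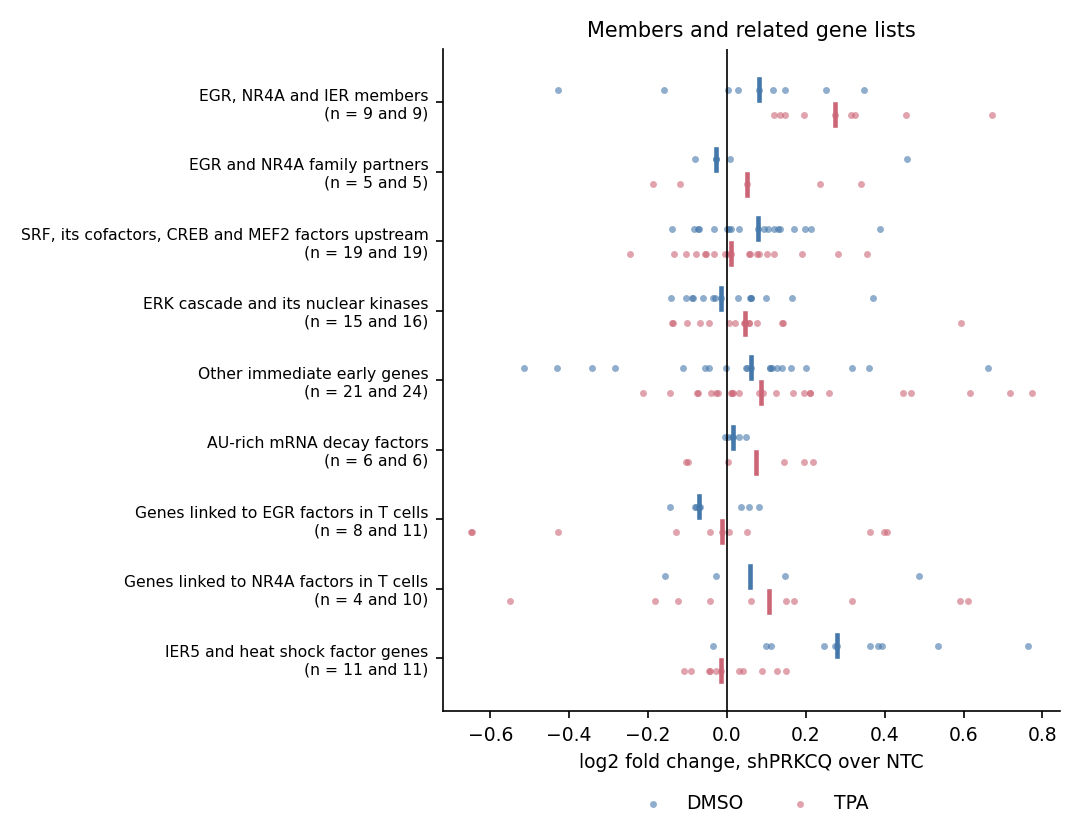
Log2 fold change of shPRKCQ over NTC for the 9 genes and the 8 related lists in DMSO and TPA; points are genes with an adjusted p-value, short bars are list medians and n gives the genes in DMSO and TPA. The 9 genes lie on both sides of 0 in DMSO and all to the right in TPA, where the heat shock list is centred near 0.

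The tables hold no expression level, and the DMSO table lists 13025 genes where the TPA table lists 58780, by a filter not given in the sources used here. Which markers were tested is therefore no check of the labelled cell type. In DMSO 4 of 11 T cell markers had an adjusted p-value, CD3D and CD3G among them, and in TPA 10 of 11 did. In TPA 9 of these 10 were positive and 1 was negative, with a median of 0.14. CD5 was at 0.56 and CD7 at 0.69 in TPA per the authors' deposited table (p = 0.0167 and 0.0647). Of markers of B cells, myeloid cells and epithelial or stromal cells, 1 each was tested in DMSO, and 4 of 5, 3 of 5 and 6 of 6 in TPA. Their medians in TPA were 0.11, 0.083 and 0.071, with 3, 2 and 4 positive and 1, 1 and 2 negative. Markers among these at an unadjusted p under 0.05 were CD79B of B cells, at -1.10, and COL1A2 and KRT5 of stromal and epithelial cells, at 0.80 and 0.77, per the authors' deposited table (p = 0.000773, 0.0369 and 0.0437). Other members of these lists went the other way. The other B cell markers tested were positive, and COL1A1 was at -0.46 in TPA per the authors' deposited table (p = 0.216). The part of all these markers in the values above was not tested. In bulk RNA a change in the share of responding cells and a change per cell cannot be told apart.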

How the data were processed

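RNA was measured in 24 libraries, which enter here through 2 comparison tables. Per the file headers, each gene has the authors' log2 fold change with its p-value and adjusted p-value, from 6 against 6 libraries. Per the submitters' processing notes the build was GRCh38 and the tools included DESeq2 1.18.1, RSEM 1.3.0 and STAR 2.5.3a; the model, covariates and shrinkage: not given in the sources used here. Depth is unknown and no count test was possible. A z-value was computed from each p-value, signed as its fold change, the implied SE as fold change over z, and intervals at 95% as fold change ± normal quantile × implied SE; they hold only if the authors' p-values are Wald tests of the same fold changes. Differences between treatments take the tables as independent, two-sided, with Benjamini-Hochberg adjustment over 13007 genes. The procedure was run on simulated data, drawn with the tables independent and with changes only in genes of lower implied SE. That simulation therefore checks neither the independence nor the recovery of genes as imprecise as the EGR and NR4A genes. All 58780 identifiers matched GENCODE release 29. The symbols MRTFA and MRTFB stand for MKL1 and MKL2. Named beside the 9 genes were called list members or else the 2 with the smallest p in each table, PRKCQ, and overlapping antisense genes, the last chosen after their values were seen. Under that rule 2 list genes are not reported here. Members and lists were chosen with earlier results of these data known. Python 3.11.15, numpy 2.4.6, pandas 2.3.3, scipy 1.17.1 and matplotlib 3.10.9 were used.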

Additional observations from a re-analysis of the deposited data

How the results depend on the processing

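The count of called genes among the 9 was 0 in DMSO and in TPA when p-values were adjusted over every gene with a p-value, adjusted over genes of both tables, rescaled by their robust SD over all genes, or read at an adjusted p under 0.1. The smallest adjusted p of the 9 in TPA was 0.291 after rescaling (NR4A3) and 1 under the others. At an unadjusted p under 0.05, an alternative chosen after seeing the data, the count in TPA was 1 (NR4A3) and in DMSO 0. The difference between treatments gave 0 of 9 as a difference of z-values and 0 of 9 with rescaled p-values (smallest adjusted p 0.735). Over all genes, rescaling raised the calls from 14 to 109 in DMSO, from 22 to 113 in TPA and from 0 to 24 for the difference. The lists were also restricted to genes tested in both tables, a choice made after seeing the data. They held 0 calls, but the same adjusted p-values were read on fewer genes, so no other count was possible. No paired analysis was possible because single libraries have no values in these tables. Left-out replicates, other normalizations, filters and tools were not run for the same reason, and what depth limits could not be assessed.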
